A study of Mus musculus with 9 samples.

Results

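The major histocompatibility complex (MHC) and antigen presentation genes of mouse hepatic stellate cells were taken as every non-control probe whose gene name began with H2- or stood in a list of 19 further genes: B2m, Cd74, Ciita, Nlrc5, Tap1, Tap2, Tapbp, Tapbpl, Psmb8, Psmb9, Psmb10, Psme1, Psme2, Erap1, Cd1d1, Cd80, Cd86, Cd40 and Mr1. This gave 105 of 56605 probes, for 60 gene names, and 73 of the 105 probes lie on chromosome 17, which carries the mouse MHC. After the filter on dim probes, 77 probes and 50 genes were measured, of 23965 genes in all. Psme2 was not analysed here. The cells were from C57BL/6 mice aged 10 weeks and were read on 9 single-colour arrays. Of these, 3 arrays held quiescent cells, which received no treatment. Another 3 held cells activated by 7 days on plastic and then given a negative control siRNA overnight, called control-siRNA cells here. The last 3 held cells cultured alike and given an siRNA against Cav1, the gene of caveolin-1. Both siRNAs were given at 5 nM. The labels give no harvest time for the quiescent cells, and no label says that samples within a group are from different animals or cultures, so the p-values reflect sample-to-sample spread, which may be technical.

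MHC class I molecules are made of a heavy chain and the light chain beta-2-microglobulin, and they show peptides cut by the proteasome in the cytosol to CD8 T cells. The peptides are carried into the endoplasmic reticulum by the transporter TAP and are trimmed and loaded there. MHC class II molecules show peptides from endosomes to CD4 T cells, with the invariant chain CD74 guarding the groove until the DM molecule exchanges it for peptide. In the liver, dendritic cells, Kupffer cells, B cells and sinusoidal endothelial cells are known for class II expression, and stellate cells have been described as able to present antigen.

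Levels are log2 signals relative to the 75th percentile of each array, and a change is the difference of group means on that scale, with its standard error (SE) from the limma fit. A gene is called where the adjusted p is under 0.05. Between 51.5 and 69.0% of probes were above background on an array. The quiescent arrays and control-siRNA array 1 lay on slide 1 and the other 5 arrays on slide 2, so slide and group largely coincide. Cav1 itself stood at -1.34, -1.12 and -1.09 in control-siRNA cells and at -2.88, -2.89 and -3.07 in Cav1-siRNA cells. The groups did not overlap, and the fitted change was -1.76 ± 0.24 (SE, n = 3 per group; adjusted p = 0.145), which was not called. In quiescent cells Cav1 stood at -4.87, -5.65 and -5.84. Of 9 stellate cell markers measured, 3 were called higher and 4 lower from quiescent to control-siRNA cells, against 42.1% and 26.0% of all genes. Among them, Col1a1 and Acta2 rose by 5.89 and 8.37, Dcn changed by 0.72 without a call, and Lrat fell at least 104-fold.

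Most of the antigen presentation genes were lower in control-siRNA cells than in quiescent cells. Of the 50 measured members, 40 were called lower, 2 were called higher and 8 were not called. Among all genes tested, 26.0% were called lower and 42.1% were called higher. The median change of the members was -3.59, or -3.26 with the 7 members that one group did not show above background set at their bounds, and the median of all genes was 0.32. All 10 class II chains and loading genes were lower, and so were all 4 class I heavy chain names grouped as classical, with a median of -4.34. Of the 10, 5 were not well above background in control-siRNA cells, and with these at their bounds the median was -6.35 (fitted median -7.43). These 5 passed the filter only through the quiescent arrays, so their being lower follows from that and is no separate evidence. The probes of Cd40, Ciita and H2-Q1 also passed only through the quiescent arrays, and those of H2-M5 and H2-M11 only through arrays of activated cells. The same limit holds for any call of these genes. With the filter on all 9 arrays, 40 members were measured, with a median change of -2.52, against 0.21 for all genes. The 2 members called higher were H2-M5 and Mr1, and without control-siRNA array 1 they were 4, with H2-Q4 (0.54, adjusted p = 0.0454) and Tap1 (0.90, adjusted p = 0.0494). With slide as a block 38 members were called lower and 1 higher, and within slide 1, which holds a single array of control-siRNA cells, 32 and 1. With normexp background correction in place of the scanner's and the same scaling, the median of all genes moved to -0.12 and that of the members to -2.19. In bulk samples fewer cells of a type and less RNA per cell cannot be told apart.

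**Figure D1:**
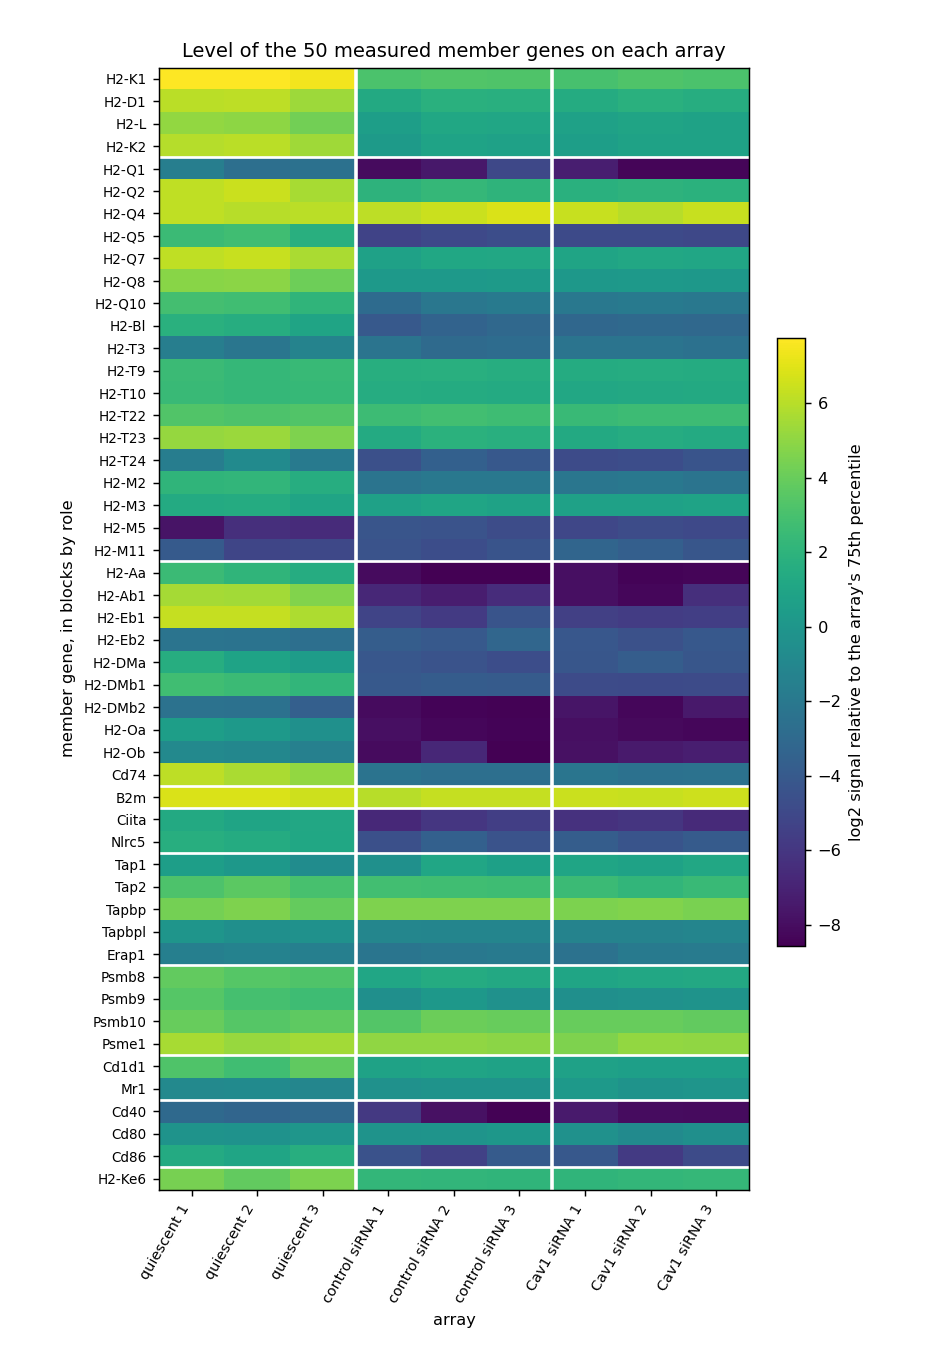
Level of each of the 50 measured member genes (rows, in blocks by role) on each of the 9 arrays (columns), on the log2 scale used above. The class II block changes colour between the 3 quiescent arrays and the 6 arrays of activated cells, with Cd74 going from between 5.10 and 6.15 to between -2.64 and -2.25, while the B2m row stays between 6.01 and 6.81.

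The heavy chain names H2-K1, H2-D1, H2-L and H2-K2 were grouped here as classical class I, the polymorphic type that shows peptide to CD8 T cells. The grouping is by gene name only and does not mean that each name stands for such a molecule in C57BL/6 mice. H2-K1 stood at 7.74, 7.75 and 7.47 on the quiescent arrays, at 3.10, 3.30 and 3.23 on the control-siRNA arrays and at 2.99, 3.23 and 3.12 on the Cav1-siRNA arrays. Every quiescent array was above every array of activated cells. The change from quiescent to control-siRNA cells was -4.44 ± 0.14 (SE, n = 3 per group; adjusted p = 1.52e-08), a fall of 21.7-fold. H2-D1 stood at 6.09, 6.11 and 5.33 in quiescent cells, 1.31, 1.77 and 1.72 in control-siRNA cells and 1.44, 1.77 and 1.61 in Cav1-siRNA cells. Its change was -4.24 ± 0.24 (adjusted p = 4.36e-07), again with no overlap between quiescent and activated arrays. H2-K2 had the largest change of the classical group, from 5.96, 6.05 and 5.41 to 0.32, 0.87 and 0.74, with 0.59, 0.85 and 0.85 in Cav1-siRNA cells. This was a change of -5.16 ± 0.22 (adjusted p = 6.92e-08). The H2-K2 probe shared a run of 19 bases with an H2-Q7 probe.

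Class I genes are near-identical copies of each other over long stretches, so a probe named for one can bind the RNA of another, and single heavy chains are uncertain. The 4 probes below, named for H2-K1, H2-L, H2-T23 and H2-Q8, are shown because they share the longest stretches that probes of different members have in common. Capitals mark the longest run of at least 15 bases that a probe shares exactly with each of the other 3.
H2-K1: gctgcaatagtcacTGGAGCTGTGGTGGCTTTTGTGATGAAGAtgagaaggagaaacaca
H2-L: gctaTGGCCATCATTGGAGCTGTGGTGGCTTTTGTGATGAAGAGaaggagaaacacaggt
H2-T23: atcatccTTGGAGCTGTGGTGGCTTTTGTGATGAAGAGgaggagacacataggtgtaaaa
H2-Q8: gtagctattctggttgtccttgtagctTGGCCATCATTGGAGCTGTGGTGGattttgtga
The files place them on mm9 at chr17:34133984-34134043 (minus strand), chr17:35403191-35403250 (plus strand), chr17:36167338-36167574 (minus strand, over more than the 60 bases of the probe) and chr17:35565247-35565306 (plus strand). The H2-L and H2-T23 probes had 31 bases in a row in common and 48 identical bases in their best ungapped alignment. H2-K1 and H2-L shared a run of 29 bases, and H2-L and H2-Q8 one of 24. These 4 probes fell by 4.21, 3.83, 3.34 and 4.40 on the log2 scale, the H2-K1 one being its second, dimmer kept probe. The second kept H2-T23 probe, which shared no run of 15 bases with a probe of another gene, fell by 0.67 (adjusted p = 0.00257 in a fit of every kept probe, as for all second probes here). C57BL/6 mice are known to lack an H2-L gene, and the H2-L probe lies beside the H2-D1 probe, which the files place at chr17:35403886-35403945.

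The Q, T and M regions hold class I genes with narrower or other roles. Of 27 such gene names on the array, 18 were measured, with a median change of -3.0. Of the 18, 14 were called lower, 1 higher and 3 not called, where 26.0% of all genes were called lower and 42.1% higher. By the brightest probe of each gene, H2-Q5 had the largest change of these, from 2.52, 2.73 and 1.69 in quiescent cells to -5.28, -5.01 and -4.73 in control-siRNA cells, with -4.89, -4.90 and -5.06 in Cav1-siRNA cells. The change was -7.32 ± 0.27 (SE, n = 3 per group; adjusted p = 3.03e-08), and no activated array reached a quiescent one. H2-Q7, which encodes the Qa-2 antigen, fell by 5.03, H2-Q2 by 3.97 and H2-M2 by 4.08, where its second kept probe fell by 1.07. The H2-Q2 probe shared a run of 35 bases with a probe named C920025E04Rik, and this H2-Q7 probe a run of 19 with the H2-K2 probe. H2-T23 encodes Qa-1, the ligand of CD94 and NKG2 receptors on natural killer cells, and its brightest probe fell by 3.34. Smaller falls were called for H2-T10 (0.89) and H2-T22 (0.58), related genes whose products are bound by gamma-delta T cells, and for H2-T9 (0.77) and H2-T3 (1.01). The call was lost for H2-T22 with median scaling (adjusted p = 0.0919) and for H2-T3 with slide as a block (-0.64, adjusted p = 0.143). H2-Q4 was not called: it stood at 6.20, 5.98 and 6.08 in quiescent cells and at 6.12, 6.42 and 6.82 in control-siRNA cells, and the groups overlapped. H2-M3, which presents N-formylated peptides, was not called either, at -0.39 ± 0.17 (adjusted p = 0.0625), nor was H2-M11 at 0.23 ± 0.35 (adjusted p = 0.579). Without quiescent array 3 the fall of H2-M3 was 0.55 and was called (adjusted p = 0.00594).

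H2-Q10 encodes a soluble class I molecule made by the liver, and its 4 kept probes gave different values. The 2 probes at chr17:35611365-35611424 and chr17:35611449-35611508 (plus strand, mm9) were above background on no control-siRNA array and at least 1490-fold and 709-fold lower there. Its other 2 kept probes fell by 4.87 and 3.81 and were above background on all 9 arrays. H2-M5 was above background on no quiescent array and on all 6 arrays of activated cells, from -7.72, -6.42 and -6.61 to -4.31, -4.38 and -4.77. It was at least 1.40-fold higher in control-siRNA cells (adjusted p = 0.00013). Its probe passed the filter only through arrays of activated cells, so its being higher is no separate evidence. With normexp background correction and 75th percentile scaling the change was -0.14 and was not called. A further 9 genes of these regions were above background on no array: H2-T18, H2-M1, H2-M9, H2-M10.1, H2-M10.2, H2-M10.3, H2-M10.4, H2-M10.5 and H2-M10.6.

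The class II chains H2-Ab1, H2-Eb1 and H2-Aa went from bright in quiescent cells to low or background levels in activated cells. H2-Ab1, the beta chain of the I-A molecule, stood at 5.57, 5.46 and 4.68 in quiescent cells and was not well above background on any of the 6 arrays of activated cells. Its readings there were -6.80, -7.30 and -6.50 with control siRNA and -7.94, -8.32 and -6.39 with Cav1 siRNA. It was at least 2669-fold lower in control-siRNA cells (adjusted p = 4.88e-08). This bound raises each dim reading to the lowest signal of any probe above background on that array, which need not be the limit of the H2-Ab1 probe. All 4 kept H2-Ab1 probes were not well above background in activated cells, and they were at least 495-fold to at least 5093-fold lower with control siRNA. H2-Aa, the alpha chain of I-A, went from 2.54, 2.12 and 1.52 to -8.09, -8.56 and -8.59, with -7.91, -8.42 and -8.37 in Cav1-siRNA cells. It was at least 296-fold lower (adjusted p = 5.34e-09). The H2-Aa probe (chr17:34421285-34421344, minus strand) and the H2-Ab1 probe with the lowest bound of its 4, at chr17:34404357-34404416 (plus strand, mm9) are shown because both chains of I-A went from bright to background.
H2-Aa: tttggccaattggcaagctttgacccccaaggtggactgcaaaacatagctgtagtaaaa
H2-Ab1: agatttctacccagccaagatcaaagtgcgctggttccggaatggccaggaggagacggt
H2-Eb1, the beta chain of I-E, stood at 6.34, 6.30 and 5.71 in quiescent cells, -5.24, -5.83 and -4.36 in control-siRNA cells and -5.47, -5.71 and -5.58 in Cav1-siRNA cells. Its change was -11.26 ± 0.34 (SE, n = 3 per group; adjusted p = 1.1e-08). C57BL/6 mice carry a deletion that silences the alpha chain of I-E, and the H2-Ea-ps probe was above background on no array. H2-Eb2 fell least of the class II genes, by 1.22 ± 0.23 (adjusted p = 0.00109).

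The invariant chain gene Cd74 stood at 6.15, 5.69 and 5.10 in quiescent cells, -2.36, -2.59 and -2.64 in control-siRNA cells and -2.25, -2.52 and -2.44 in Cav1-siRNA cells. It remained above background on all 9 arrays, and its change was -8.18 ± 0.25 (SE, n = 3 per group; adjusted p = 1.1e-08), or 290-fold. The DM chains exchange the invariant chain fragment for peptide. H2-DMa went from 1.58, 0.91 and 0.46 to -4.16, -4.42 and -4.71, with -4.24, -3.77 and -4.19 in Cav1-siRNA cells, a change of -5.41 ± 0.29 (adjusted p = 3.06e-07). H2-DMb1 fell by 6.44 and H2-DMb2 was at least 9.68-fold lower. The DO chains restrain DM, chiefly in B cells, and H2-Oa and H2-Ob were at least 77.1-fold and 32.2-fold lower.

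**Figure D2:**
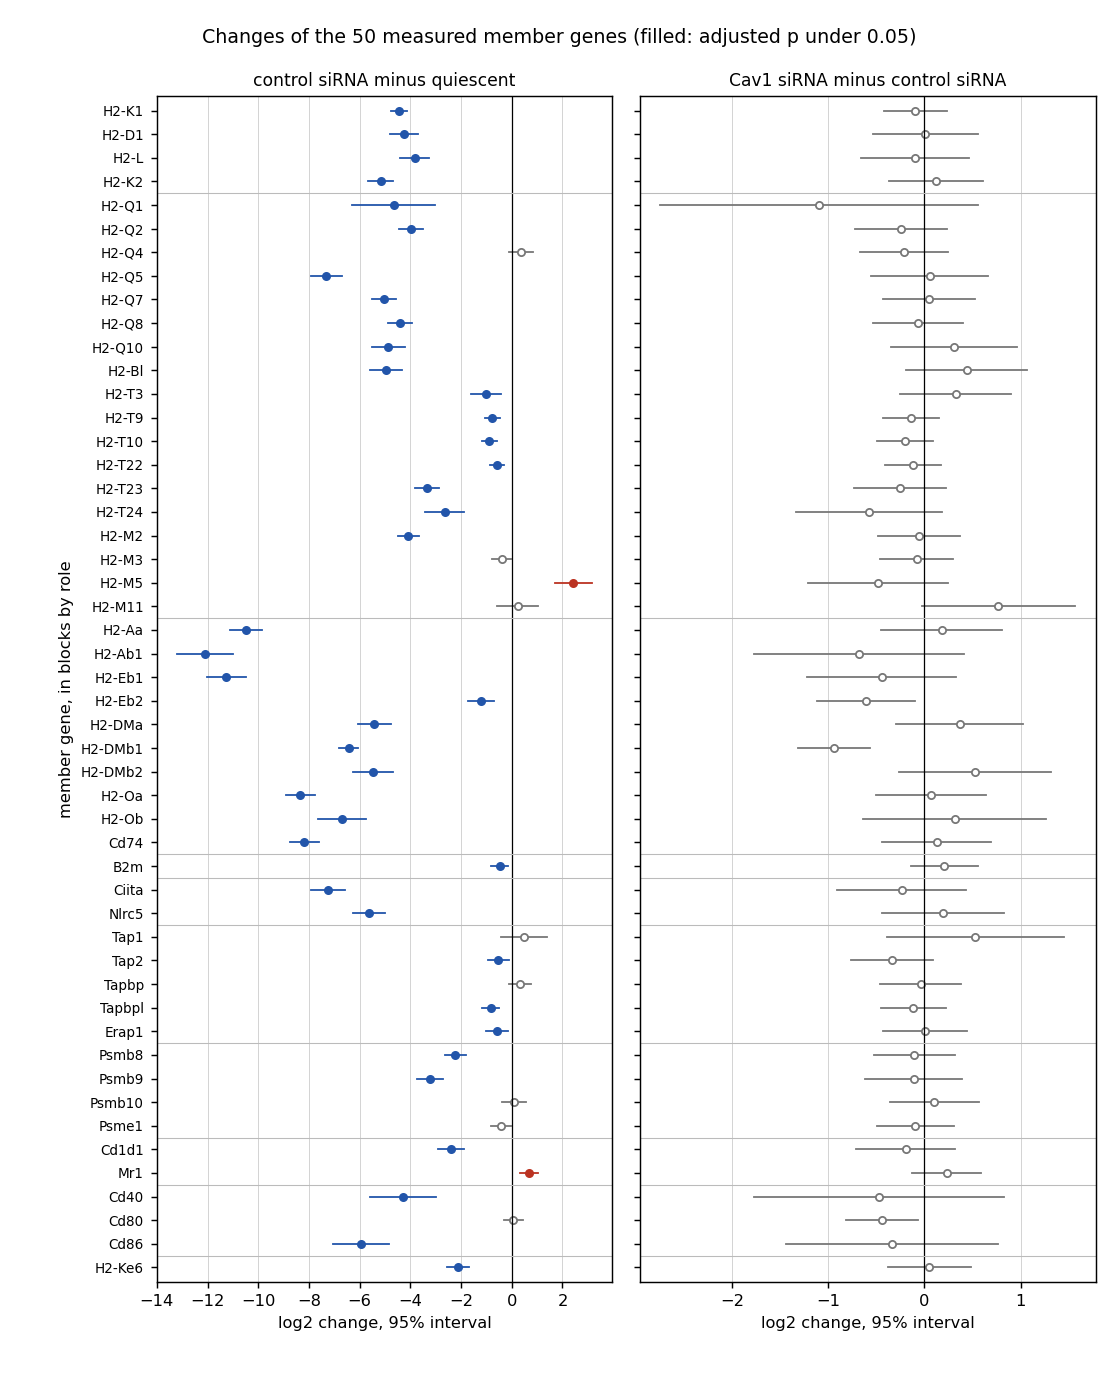
Log2 change of each measured member gene with its 95% interval (line), control-siRNA minus quiescent cells on the left and Cav1-siRNA minus control-siRNA cells on the right, on different scales, with filled points called at an adjusted p under 0.05. Genes not above background in a group are plotted at their fitted value, which is not a measured size. On the left 40 genes are filled below 0 and 2 above it, and on the right no point is filled, with estimates between -1.09 and 0.77.

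Ciita and Nlrc5 encode the regulators that switch on the class II and class I genes through shared promoter boxes. Ciita stood at 1.34, 0.95 and 1.22 in quiescent cells, -6.73, -6.01 and -5.53 in control-siRNA cells and -6.27, -6.08 and -6.64 in Cav1-siRNA cells. It was above background on 3 quiescent, 2 control-siRNA and 0 Cav1-siRNA arrays, and its change was -7.26 ± 0.30 (SE, n = 3 per group; adjusted p = 5.51e-08). Its probe passed the filter only through the quiescent arrays, so its being lower is no separate evidence. Nlrc5 stood at 1.65, 1.44 and 1.17 in quiescent cells, -4.58, -3.61 and -4.42 in control-siRNA cells and -3.76, -4.36 and -3.91 in Cav1-siRNA cells, a change of -5.62 ± 0.28 (adjusted p = 1.98e-07). For both genes quiescent and activated arrays did not overlap, and a second kept probe was also lower, at least 7.53-fold for Ciita, where it was not well above background in control-siRNA cells, and by a log2 change of -2.10 for Nlrc5.

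Promoters of members that fell by very different amounts are shown for comparison, as the 250 bases before the RefSeq start (build GRCm38.p6). Both strands were searched for the CCAAT box, which is the Y box of MHC promoters when read on the reverse strand, the interferon-stimulated element core GAAANNGAAA, the gamma-activated site TTCNNNGAA, the kappaB-like element GGGGATTCC of class I promoters, and the cAMP response element TGACGTCA. Capitals mark the matches. H2-K1 (chr17:34000348-34000597, minus strand) and B2m (chr2:122147437-122147686, plus strand) stand for class I, H2-Aa (chr17:34287824-34288073, minus strand) and H2-Eb1 (chr17:34305617-34305866, plus strand) for class II, and Psmb9 (chr17:34187331-34187580, minus strand) for the immunoproteasome.
H2-K1: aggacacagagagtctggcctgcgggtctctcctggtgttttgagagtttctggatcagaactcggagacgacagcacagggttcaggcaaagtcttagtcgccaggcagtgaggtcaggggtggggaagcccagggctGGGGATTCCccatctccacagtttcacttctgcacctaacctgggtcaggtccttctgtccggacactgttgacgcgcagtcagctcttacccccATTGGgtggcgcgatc
B2m: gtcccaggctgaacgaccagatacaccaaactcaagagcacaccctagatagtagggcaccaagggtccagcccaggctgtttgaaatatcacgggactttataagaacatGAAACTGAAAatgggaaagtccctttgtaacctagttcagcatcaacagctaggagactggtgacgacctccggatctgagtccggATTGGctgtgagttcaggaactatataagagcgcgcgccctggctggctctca
H2-Aa: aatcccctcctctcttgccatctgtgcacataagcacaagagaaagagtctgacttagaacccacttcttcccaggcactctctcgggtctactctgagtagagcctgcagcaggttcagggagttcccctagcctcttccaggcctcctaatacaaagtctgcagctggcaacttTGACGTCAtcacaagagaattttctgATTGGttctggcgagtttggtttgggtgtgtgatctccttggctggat
H2-Eb1: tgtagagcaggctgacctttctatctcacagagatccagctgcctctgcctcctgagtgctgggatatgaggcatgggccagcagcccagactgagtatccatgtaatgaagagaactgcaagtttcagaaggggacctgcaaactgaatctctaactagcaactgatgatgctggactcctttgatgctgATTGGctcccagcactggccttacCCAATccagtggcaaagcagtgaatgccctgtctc
Psmb9: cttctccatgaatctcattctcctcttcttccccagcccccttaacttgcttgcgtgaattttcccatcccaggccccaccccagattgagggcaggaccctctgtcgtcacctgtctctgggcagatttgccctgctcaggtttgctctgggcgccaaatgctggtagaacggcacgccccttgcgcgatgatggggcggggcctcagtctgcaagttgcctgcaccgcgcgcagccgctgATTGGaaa
The B2m match to GAAANNGAAA begins 139 bases before the start, and the H2-Aa match to TGACGTCA begins 74 bases before it, ahead of a CCAAT match at 48. Windows were matched for 32 of the 50 measured members. A CCAAT match stood in 22 of these 32, in 7 of 8 class II and loading genes and in 8 of 11 Q, T and M region genes, against 33.8% of all 32851 windows in the RefSeq table. The interferon element core was found in 3 members (B2m, H2-T22 and H2-T23), against 3.0% of all windows. H2-K1, H2-D1 and H2-Q7 held the kappaB-like element, which stood in 0.2% of all windows. The gamma-activated site was found in H2-M3, H2-M11, H2-DMb2 and Psmb8, against 7.0% of windows, and TGACGTCA in H2-Aa alone among these members, against 1.5%. The matches did not overlap each other in the promoters printed, and a match is a description of letters only.

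B2m, the light chain shared by all class I molecules, changed less than any of the 4 heavy chain names grouped as classical. It stood at 6.81, 6.80 and 6.50 in quiescent cells, 6.01, 6.34 and 6.32 in control-siRNA cells and 6.45, 6.35 and 6.50 in Cav1-siRNA cells. All arrays of activated cells were below all quiescent arrays, Cav1-siRNA array 3 only just. The change to control-siRNA cells was -0.48 ± 0.15 (SE, n = 3 per group; adjusted p = 0.0207), and that of a second, dimmer probe was -2.20 (adjusted p = 0.00027). The call for B2m was lost without quiescent array 1 (adjusted p = 0.0511) and without control-siRNA array 1 (adjusted p = 0.0697), and with the arrays scaled to their median (-0.34, adjusted p = 0.147).

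Genes of peptide transport, loading and trimming had changes between -0.84 and 0.48, with a median of -0.52. Of the 5, 3 were called lower and 0 higher, against 26.0% and 42.1% of all genes. Tap1, one chain of the peptide transporter, stood at 0.56, 0.10 and -0.66 in quiescent cells, -0.37, 1.1 and 0.69 in control-siRNA cells and 1.00, 0.81 and 1.21 in Cav1-siRNA cells. Quiescent and control-siRNA arrays overlapped, and the change of 0.48 ± 0.40 (SE, n = 3 per group) was not called (adjusted p = 0.321). Without control-siRNA array 1 it was 0.90 and was called (adjusted p = 0.0494). Its second probe (chr17:34330854-34330913, plus strand, mm9) went the other way, with a change of -1.03 (adjusted p = 0.00106), so no direction is given for Tap1. The sequence of that probe is shown because the probes disagree.
Tap1: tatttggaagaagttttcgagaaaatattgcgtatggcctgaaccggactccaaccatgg
Tap2, the other chain, went from 3.21, 3.60 and 3.01 to 2.83, 2.77 and 2.65, with 2.57, 2.16 and 2.50 in Cav1-siRNA cells. Its change of -0.52 ± 0.19 (adjusted p = 0.0331) was no longer called without quiescent array 1 or 2, without any 1 of the control-siRNA arrays or without Cav1-siRNA array 3, with adjusted p from 0.0502 to 0.102. Tapbp, the tapasin that holds class I at TAP, stood at 4.35, 4.58 and 3.88, then 4.56, 4.62 and 4.58, and 4.50, 4.68 and 4.46, and these groups overlapped. Its change was 0.32 ± 0.19 (adjusted p = 0.159), and 0.48 without quiescent array 2 (adjusted p = 0.0285). Tapbpl, a relative of tapasin that edits class I peptides, fell by 0.84 (adjusted p = 0.000913), the largest change of the group. It stood at -0.04, -0.47 and -0.35 in quiescent cells, -1.06, -1.16 and -1.15 in control-siRNA cells and -1.30, -1.29 and -1.12 in Cav1-siRNA cells, without overlap between quiescent and activated arrays. Erap1, the aminopeptidase that trims peptides, went from -1.51, -1.34 and -1.51 to -2.22, -2.06 and -1.84, with -2.42, -1.86 and -1.82 in Cav1-siRNA cells. This change of -0.59 ± 0.19 was called (adjusted p = 0.0228) but not without quiescent array 2, control-siRNA array 1 or control-siRNA array 2, with adjusted p of 0.0514, 0.0753 and 0.0605.

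The immunoproteasome swaps 3 catalytic subunits of the proteasome for Psmb8, Psmb9 and Psmb10. Psmb9 stood at 3.42, 2.92 and 2.71 in quiescent cells, -0.47, 0.11 and -0.29 in control-siRNA cells and -0.45, -0.34 and -0.20 in Cav1-siRNA cells, a change of -3.24 ± 0.22 (SE, n = 3 per group; adjusted p = 1.61e-06). Psmb8 went from 3.83, 3.42 and 3.28 to 1.09, 1.48 and 1.29, with 1.04, 1.22 and 1.29 in Cav1-siRNA cells, a change of -2.22 ± 0.18 (adjusted p = 5.64e-06). Neither gene's quiescent arrays overlapped the activated ones. Their probes are shown because these were the subunits that fell, Psmb8 at chr17:34337771-34337830 (plus strand) and Psmb9 at chr17:34319174-34319233 (minus strand, mm9).
Psmb8: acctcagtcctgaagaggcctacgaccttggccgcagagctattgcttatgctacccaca
Psmb9: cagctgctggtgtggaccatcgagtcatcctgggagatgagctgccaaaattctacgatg
Psmb10 overlapped between the groups, at 3.94, 3.46 and 3.72, then 3.39, 4.06 and 3.94, and 3.93, 3.92 and 3.84. Its change was 0.09 ± 0.20 (adjusted p = 0.709). Psme1, a subunit of the proteasome activator PA28, was at -0.44 ± 0.17 (adjusted p = 0.0511), a value that was called without quiescent array 2 (adjusted p = 0.0217) and without Cav1-siRNA array 1 (adjusted p = 0.0364), whose values enter through the shared estimate of the spread.

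Of the class I-like presenters, Cd1d1 shows lipids to natural killer T cells and Mr1 shows vitamin B metabolites to MAIT cells. Cd1d1 stood at 3.24, 2.76 and 3.75 in quiescent cells, 0.82, 0.93 and 0.81 in control-siRNA cells and 0.75, 0.61 and 0.62 in Cav1-siRNA cells, a change of -2.39 ± 0.23 (SE, n = 3 per group; adjusted p = 1.42e-05). Mr1 went the other way, from -0.87, -0.79 and -1.09 to -0.34, -0.16 and -0.22, with 0.21, -0.22 and -0.04 in Cav1-siRNA cells. Its rise of 0.68 ± 0.16 (adjusted p = 0.00428) was joined by a second probe at 1.80 (adjusted p = 9.56e-06). With slide as a block the rise of the first probe was 0.58 and was not called (adjusted p = 0.0661).

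Cd80, Cd86 and Cd40 encode co-stimulatory molecules of antigen-presenting cells. Cd86 had the largest change, from 1.38, 1.01 and 1.67 in quiescent cells to -4.49, -5.40 and -3.87 in control-siRNA cells, with -4.09, -5.84 and -4.85 in Cav1-siRNA cells, and quiescent and activated arrays did not overlap. The change was -5.94 ± 0.49 (SE, n = 3 per group; adjusted p = 5.23e-06), and its other 3 kept probes, not well above background in control-siRNA cells, were at least 20.4-fold, 29.8-fold and 150.5-fold lower. Cd40 went from -2.98, -3.25 and -3.08 to levels not well above background, -5.85, -7.83 and -8.49, with -7.38, -8.07 and -8.14 in Cav1-siRNA cells. It was at least 8.12-fold lower in control-siRNA cells (adjusted p = 0.000144). Its probe passed the filter only through the quiescent arrays, so its being lower is no separate evidence. Cd80 overlapped, at -0.19, -0.26 and -0.01, then -0.21, -0.14 and 0.08, with -0.34, -0.80 and -0.47 in Cav1-siRNA cells. Its change was 0.06 ± 0.16 (adjusted p = 0.762), and its other 3 probes gave 1.30, -0.31 and -0.62, so no direction is given. H2-Ke6, an H2 name in the region that encodes a steroid dehydrogenase and no MHC chain, fell from 4.41, 3.84 and 4.55 to 2.20, 2.16 and 2.11, with 2.10, 2.20 and 2.31 in Cav1-siRNA cells. Its change was -2.11 ± 0.19 (adjusted p = 1.01e-05).

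**Figure D3:**
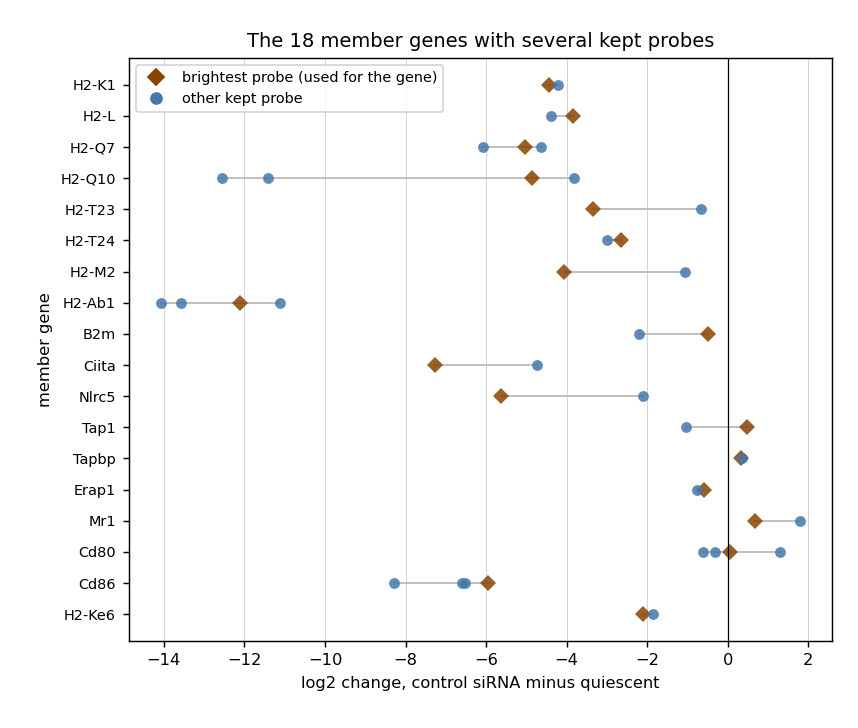
Log2 change from quiescent to control-siRNA cells of each kept probe, for the 18 member genes with several kept probes, with the brightest probe as a diamond and the others as circles. The probes had the same sign in 16 genes and differed in sign for Tap1 and Cd80, and probes not above background in control-siRNA cells, such as 2 of H2-Q10, are plotted at their fitted value.

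Markers of other liver cells, the mesothelial ones apart, mostly moved in the same direction as the members. Among all genes, 26.0% were called lower and 42.1% higher from quiescent to control-siRNA cells. All 13 macrophage and Kupffer cell markers were called lower in control-siRNA cells, and their summed signal, in units of the array's 75th percentile, fell from between 370 and 622 on the quiescent arrays to between 33.4 and 37.2. Clec4f, Vsig4 and Timd4, which define Kupffer cells, were above background on no control-siRNA array. Of 7 dendritic cell markers measured, 6 fell, and Itgax and Clec9a were above background on no control-siRNA array. The list's sums were 17.4 to 29.6 against 6.88 to 17.7, and most of the second came from Siglech, a plasmacytoid cell marker, at 6.33 to 8.07 against 6.43 to 17.3 (log2 change 0.70, adjusted p = 0.0998). Without Siglech, a split made after its values were seen, the sums were 11.1 to 21.5 against 0.358 to 0.475, and 0.290 to 0.321 with Cav1 siRNA. The B cell markers fell in 4 of 5 genes, from sums of 5.48 to 6.75 to sums of 0.0860 to 0.133, and Cd79a and Cd79b were at background. All 7 T and natural killer cell markers fell, from 19.8 to 55.8 to between 0.638 and 0.719, and Cd3g, Cd8a and Gzmb were at background. All 3 pan-leukocyte markers fell (13.7 to 25.1 against 0.952 to 1.16) but were above background on every array. The 10 sinusoidal endothelial markers fell too (327 to 551 against 0.834 to 0.874), with Cdh5 and Tek at background, as did the 6 hepatocyte markers (685 to 892 against 0.0895 to 0.101), with Apoa1, Ttr and Fabp1 at background. In Cav1-siRNA cells these 7 sums were 30.4 to 32.7, 11.2 to 15.5, 0.0843 to 0.0982, 0.654 to 0.706, 0.783 to 1.1, 0.784 to 0.843 and 0.0474 to 0.0754. The sum over the 10 class II and loading genes went from between 123 and 218 to between 0.386 and 0.443. Mesothelial markers went the other way, with 4 of 5 higher and sums of 0.848 to 1.54, 23.5 to 25.0 and 20.1 to 21.8 in the 3 groups. The part of these cell types in the changes of the members was not tested.

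**Figure D4:**
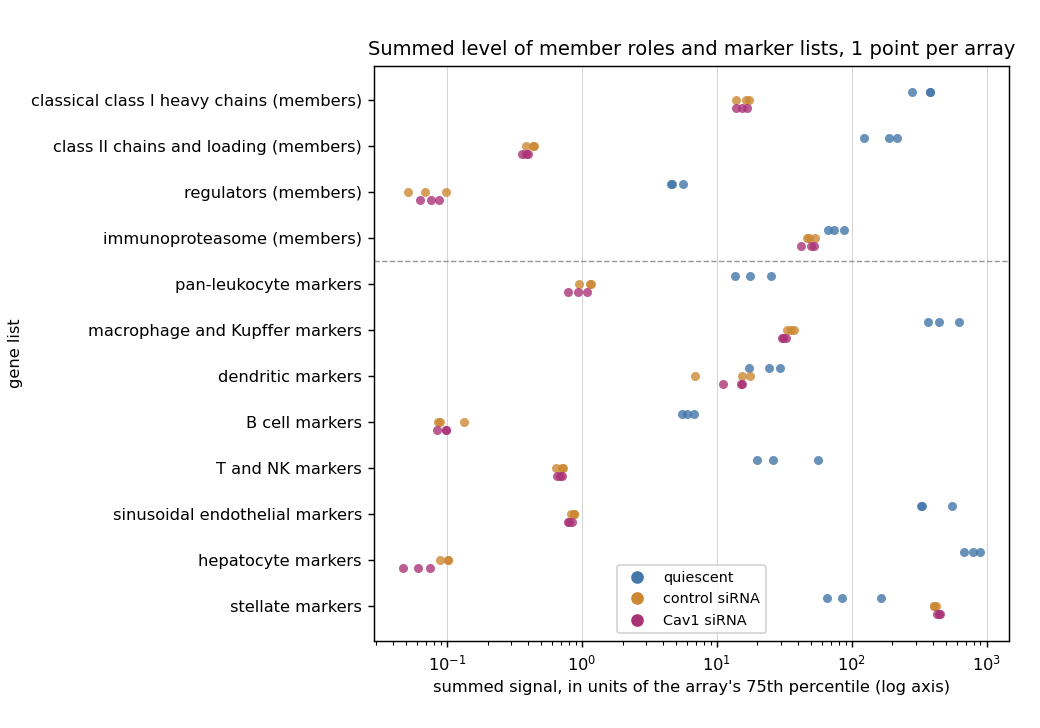
Summed linear signal (log axis, in units of each array's 75th percentile) of 4 roles of member genes, above the dashed line, and of 8 marker lists, below it, with 1 point per array coloured by group. The quiescent points lie right of the activated ones for the 4 member roles and for every marker list shown except dendritic and stellate cells. For dendritic cells they overlap at 17.4 to 17.7 with Siglech in the sum. For stellate cells quiescent arrays lie at 65.4 to 165 and control-siRNA arrays at 406 to 419. Of the 9 stellate genes in the sum, 3 were called higher and 4 lower in control-siRNA cells.

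The arrays of quiescent cells also differed among themselves. Quiescent array 3 was the lowest of the 3 for 33 of the 50 members (66.0%), and for 27.6% of all genes. Quiescent array 1 was the highest for 28 members (56.0%), and for 28.5% of all genes. The median SD of a member within the quiescent group was 0.35, the same as for all genes, and within the control-siRNA group it was 0.25 against 0.16.

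Other genes of the same pathways did not move as one. Among 16 genes of MHC transcription and interferon-gamma signalling, 10 fell and 3 rose, where 26.0% of all genes were called lower and 42.1% higher. The largest fall was that of Irf8, an interferon regulatory factor of myeloid and B cells, from 4.47, 4.37 and 3.69 to -4.23, -4.22 and -4.24 (-8.41, adjusted p = 4.82e-09). The largest rise was that of Nfya, a subunit of the factor that binds CCAAT boxes, from -0.54, 0.07 and -0.12 to 0.99, 0.47 and 0.57 (0.87, adjusted p = 0.0037). The receptor chain Ifngr1 fell by 1.67 and Ifngr2 rose by 0.57, Irf1 fell by 1.87, and Rfx5, which binds the X box, rose by 0.57.

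Of 12 constitutive proteasome and other class I processing genes, 6 rose and 2 fell, near the shares over all genes given above. Npepps, a cytosolic aminopeptidase, rose most, from 1.42, 1.82 and 2.25 to 3.77, 3.63 and 3.61 (1.84, adjusted p = 3.64e-05). Psme3, the PA28 gamma subunit, fell most, by 1.66 (adjusted p = 0.000128). The chaperones of class I folding rose, Pdia3 by 1.66, Calr by 1.01 and Canx by 0.91. Psmb5, Psmb6 and Psmb7, the subunits that the immunoproteasome replaces, were not called, with changes of 0.02, 0.09 and 0.02.

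Of 10 class II processing proteases and ligases, 5 fell and 2 rose, against 26.0% and 42.1% of all genes. Ctsh fell most, from 5.36, 5.03 and 5.26 to -2.71, -2.57 and -2.72 (-7.88, adjusted p = 8.7e-10), and Ctss, the protease that cleaves the invariant chain, fell by 5.49. Marchf1, a ligase that takes class II off the cell surface, rose by 1.97 (adjusted p = 0.000243). Of 9 measured class I-like genes outside the rule, 4 rose and 4 fell, the rises near the share over all genes. Raet1e, a ligand of the NKG2D receptor, rose from -3.17, -1.86 and -2.63 to 2.06, 2.13 and 2.09 (4.65, adjusted p = 6.88e-07), and Azgp1 fell by 10.02 (adjusted p = 7.49e-09).

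Among 13 measured co-stimulatory and co-inhibitory ligands, 9 fell and 2 rose, against 26.0% and 42.1% of all genes. Cd276, which encodes B7-H3, was above background on no quiescent array and on all 6 arrays of activated cells, and it was at least 28.7-fold higher in control-siRNA cells (adjusted p = 1.9e-06). The probe of Cd276 passed the filter only through arrays of activated cells, so its rise is no separate evidence. The other rise was Nectin2 (1.23). Cd83, a marker of mature dendritic cells, fell from 4.04, 3.29 and 2.45 to -6.70, -7.14 and -6.14 (-9.92, adjusted p = 3.11e-07), and Cd274, which encodes PD-L1, fell by 3.93.

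Knockdown of Cav1 was the question of the second comparison, Cav1-siRNA against control-siRNA cells. No member was called by limma, and 0% of all genes were. At an unadjusted p under 0.05, 3 of the 50 members differed, against 4.96% of all genes. The groups did not overlap for 11 members, 9 lower and 2 higher with Cav1 siRNA, against 22.6% of all genes. Both counts are near the shares over all genes. Other settings called between 0 and 7 of all genes, except for array weights, which called 656, and within slide 2 no member was called. The median change of the members was -0.09, and -0.04 for all genes.

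The 3 members with the lowest p were H2-DMb1, H2-Eb2 and Cd80. H2-DMb1 stood at -4.05, -3.85 and -3.92 in control-siRNA cells and at -4.84, -4.92 and -4.88 in Cav1-siRNA cells, without overlap. Its change was -0.94 ± 0.17 (SE, n = 3 per group; adjusted p = 0.373), and it was called only when arrays were weighted by quality (-0.98, adjusted p = 0.00211). H2-Eb2 went from -3.75, -4.00 and -3.22 to -4.15, -4.55 and -4.08, a change of -0.60 ± 0.23 (adjusted p = 0.883). Cd80 changed by -0.44 ± 0.16 (adjusted p = 0.883), with the levels given above and no overlap. Its other 3 kept probes gave -0.35, 0.29 and -0.24, so no direction is given for Cd80. For the class I chains H2-K1 and H2-D1 the 95% interval of the change ran from -0.42 to 0.23 and from -0.53 to 0.55. Cd74 was at 0.13 (-0.44 to 0.69), B2m at 0.21 (-0.14 to 0.56) and Nlrc5 at 0.19 (-0.44 to 0.83). A p that misses the threshold does not show that these levels were alike.

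Against quiescent cells, Cav1-siRNA cells had 41 members lower, 3 higher and 6 not called, where 27.2% of all genes were called lower and 40.4% higher. The median change of the members was -3.76, or -3.29 with 9 such members at their bounds, and 0.27 for all genes. This comparison shares the quiescent arrays with the one above, so the values are only set side by side. H2-K1 was at -4.54 (-4.44 in control-siRNA cells), Cd74 at -8.05 (-8.18), Psmb9 at -3.35 (-3.24) and Cd1d1 at -2.59 (-2.39). H2-Ab1 was at least 2421-fold lower, H2-Aa at least 268-fold and Ciita at least 144.5-fold, since none was well above background in Cav1-siRNA cells. The 3 members called higher were Mr1 (0.91), H2-M11 (1.00, adjusted p = 0.031) and H2-M5, which was above background on no quiescent array and has no fold bound here. With normexp and 75th percentile scaling H2-M5 and H2-M11 were at -0.26 and -0.15, neither of them called. The call of H2-M11 was lost without quiescent array 2 or 3 or Cav1-siRNA array 1 or 2, with adjusted p between 0.0743 and 0.11. B2m was at -0.27 (adjusted p = 0.144) and Tap1 at 1.01 (adjusted p = 0.0519). Without quiescent array 3, B2m was called at -0.38 (adjusted p = 0.0471). Without quiescent array 1, Tap1 was called at 1.28 (adjusted p = 0.0298), as it was without control-siRNA array 1 or 2 through the shared spread (adjusted p = 0.0202 and 0.0404). Among the members called lower, H2-M3, H2-T3, Psme1 and Erap1 lost the call in at least 1 fit that left out an array, with adjusted p between 0.0521 and 0.116. With slide as a block 36 members were called lower and 1 higher.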

How the data were processed

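Each of the 9 arrays held 62976 spots, and the submitters' processing notes name Agilent Feature Extraction, version 10.7.1.1. The deposited scanner files give a processed signal per spot, an intensity already background-subtracted and detrended per the file headers, with the authors' flags for outlier spots and spots well above background as other values. The authors' series table of intensities was used as an alternative only. Spots with outlier flags were dropped, spots of a probe averaged, and log2 values scaled to each array's 75th percentile. A probe was kept if at least 0.5 of its spots were above background on all 3 arrays of a group, and the brightest kept probe stood for a gene. All 3 groups were fitted together with limma 3.58.1 (R 4.3.3, with the data.table package at version 1.17.8), with Benjamini-Hochberg adjustment over 23965 genes and 95% intervals. The script was tested on simulated data. A bound (at least N-fold) is for a group not well above background. It raises each lower reading to the lowest signal of any probe above background on that array. The limit of a given probe can lie higher, so a bound is nominal and no guaranteed minimum. Figures used Python 3.11.15 and matplotlib 3.10.9. Of the non-control probes, 32994 were named through their accession and 520 through a synonym in the RefSeq tables, and no member's name changed. Promoters come from RefSeq (GRCm38.p6) and probe sequences and positions (mm9) from the scanner files. The number of arrays limits the precision. The members and gene lists were chosen with earlier results of these data known. Values on every array are given for a set list of members, each role's largest change, the 3 members with the lowest p under Cav1 siRNA, and each pathway list's largest called rise and fall. Alternatives were other background corrections, scalings, filters, probe summaries, blocks, weights and leaving out each array.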

Additional observations from a re-analysis of the deposited data

How the results depend on the processing

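Members called lower from quiescent to control-siRNA cells numbered 40, and between 32 and 45 under the other settings, 37 to 41 with 1 array left out. The 2 called higher became 1 at 2-fold or more, 1 with the filter on all 9 arrays, 1 with slide as a block and 1 within slide 1, and 2 to 4 with 1 array left out. For Cav1-siRNA against control-siRNA cells 0 members were called, except 1 with array weights (H2-DMb1), and 0 to 0 with 1 array left out. Against quiescent cells the 3 members higher with Cav1 siRNA became 1 at 2-fold or more, 5 with median scaling and 1 with slide as a block, and 2 to 4 with 1 array left out. The 41 lower became 33 to 44, and 37 to 41 with 1 array left out. With normexp and the 75th percentile H2-M5 and H2-M11 changed sign: against quiescent cells, H2-M5 was at -0.14 with control siRNA and -0.26 with Cav1 siRNA, and H2-M11 at -0.42 and -0.15. The cause was not tested. Over the single genes, 989 of 1040 values from quiescent to control-siRNA cells kept their call or their lack of one. A further 35 lost the call, 14 gained it and 2 reversed sign with a call in at least 1 of the fits. For Cav1-siRNA cells these numbers were 929, 44, 15 and 2 of 990 against quiescent cells. Values not called in either fit count as kept even where the sign changed. Psmb10, for instance, ran from -0.31 to 0.29 from quiescent to control-siRNA cells without a call. Deviations of samples with the same replicate number had correlations from -0.11 to 0.17, against -0.27 to 0.28 for other numbers. With 3 arrays per group, partly confounded with slide, these values cannot tell whether the numbers pair samples, and the labels do not say. With the replicate block the counts were 2 higher and 39 lower, 0, and 3 higher and 39 lower. Genes near background, such as H2-M5, H2-M11, H2-Q1 and the class II chains in activated cells, have levels limited by that background.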
